A study of Mus musculus with 2 samples.

Results

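Among the cells sorted from mouse long-bone marrow, 1018 of 41378 carried abundant mRNA for osteopontin (Spp1) together with Mmp13, Postn or Ptprz1, and little for osteocalcin, cartilage matrix or endothelial receptors. They were selected by UMI counts, that is by counted mRNA molecules, so the genes used for the selection describe the cells and are not findings. A cell was a member with at least 50 UMIs of Spp1, at least 10 of Mmp13, Postn and Ptprz1 together, fewer than 50 of the osteocalcin genes Bglap and Bglap2 together, fewer than 10 of Acan, Col9a1, Hapln1 and Matn3 together, and fewer than 3 of Cdh5 and Kdr together. Only barcodes with at least 500 genes and at most 10% mitochondrial UMIs were considered. The old library gave 657 members of 18975 kept barcodes and the adult library 361 of 22403.

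The groups are old and adult C57BL6 mice of WT genotype, with 1 library per age. In both, marrow flushed from long bones was digested, red cells were lysed, blood-forming cells were depleted magnetically, and live cells were sorted by scatter and DAPI before droplet capture with a 10x 3' kit. The sources used here do not give ages in months, sex, the number of mice or any pooling. With 1 library per age there is no replicate, so no p-value is given, the intervals cover counting error only, and age and library cannot be told apart.

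Osteopontin is a phosphorylated, integrin-binding protein of the bone matrix, secreted by cells of the osteoblast lineage and by several other cell types. MMP13 is the collagenase that cleaves fibrillar collagen during bone and cartilage remodelling, and its gene is a target of RUNX2, the transcription factor that commits mesenchymal cells to the bone lineage. Periostin (Postn) is a matricellular protein of periosteum and other collagen-rich tissues, and Ptprz1 encodes a receptor phosphatase that binds pleiotrophin. The cells set beside the members are CXCL12-abundant reticular (CAR) cells, the perivascular mesenchymal cells that supply CXCL12 and stem cell factor to blood progenitors. They were taken as kept barcodes with at least 10 UMIs of Cxcl12, at least 1 of Lepr and fewer than 5 of Spp1, which gave 11260 cells in the old and 12808 in the adult library.

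Members were 3.46% of kept barcodes in the old library (exact 95% binomial interval 3.21% to 3.73%) and 1.61% in the adult library (1.45% to 1.78%), a ratio of 2.15 (1.89 to 2.45). Much of that ratio arose at the osteocalcin limit. Cells past the Spp1 and the Mmp13, Postn and Ptprz1 thresholds alone numbered 664 in the old and 584 in the adult library, a ratio of shares of 1.34 (1.20 to 1.50). The osteocalcin limit then removed 5 of the 664 old cells (0.753%) and 182 of the 584 adult cells (31.2%). Cells with at least 200 osteocalcin UMIs and at least 50 of Col1a1, the mature osteoblast level, numbered 51 in the old and 858 in the adult library. Bglap in megakaryocytes and erythroid cells, read as free RNA, also differed. It stood at 6.27 counts per 1000000 UMIs (CPM) in those of the old library and at 8321 CPM in those of the adult library. These blood cells are unlike between the libraries, with a median of 24109.5 UMIs in the old and 1962.5 in the adult library. Erythroid cells numbered 756 in the old and 80 in the adult library, so the levels are not like for like. The part of free osteocalcin RNA in the number of cells removed was not tested.

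**Figure D1:**
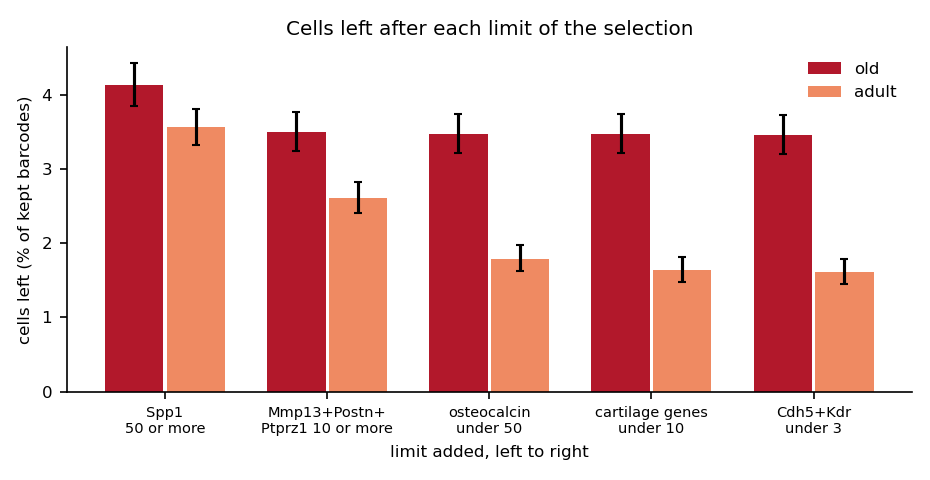
Cells left, as a percentage of kept barcodes, after each limit of the selection was added from left to right, for the old (red) and adult (orange) library, with exact 95% binomial intervals. The old library loses few cells after the first 2 limits and ends at 3.46%, while the adult library drops at the osteocalcin limit and ends at 1.61%.

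Members held more UMIs per cell than CAR cells, and the selection by raw counts itself favours deep barcodes. Their median was 12702 UMIs in the old and 14876 in the adult library, against 7760.5 in old and 7296.5 in adult CAR cells. No barcode of a member was shared between the libraries as a member of both, although 152 barcodes occurred in both libraries. At the edge of the rule, the 75 old cells with 50 to 74 Spp1 UMIs had 4230 CPM of Cxcl12 and 3914 CPM of Mmp13, and the 184 old cells left outside with 25 to 49 had 4230 CPM of Cxcl12 and 2959 CPM of Mmp13. In the adult library the 106 cells just inside had 3053 CPM of Cxcl12 and 2035 CPM of Mmp13, and the 258 just outside had 3617 CPM of Cxcl12 and 1966 CPM of Mmp13. The cells near the Spp1 threshold thus had higher Cxcl12 levels than the pool of all members and graded into their neighbours on the other side.

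Spp1 ranged over the members of the old library from 50 UMIs per cell, through a median of 439, to 4646, and over those of the adult library from 50, through a median of 107, to 5499. Pooled over cells, this was 50016 CPM in old members and 21568 CPM in adult members, against 111 CPM in old and 115 CPM in adult CAR cells. Mmp13 had a median of 57 UMIs per cell in old members (0 to 627) and of 27 in adult members (0 to 1097). Postn had a median of 16 UMIs per old member (0 to 231) and of 8 per adult member (0 to 277). The ranges of the libraries overlapped from end to end for all 3 of these genes, and the medians were higher in the old library. Ptprz1 was the sparsest of the 4 genes with a lower limit, at 426 CPM in old and 173 CPM in adult members, against 3.73 CPM in old and 13.3 CPM in adult CAR cells.

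The 2 further markers, Dmp1 and Col25a1, were not used to select cells. Dmp1 encodes an acidic matrix phosphoprotein of late osteoblasts and osteocytes that acts on mineralization and phosphate handling. It stood at 404 CPM in old and 116 CPM in adult members, against 2.94 CPM in old and 4.95 CPM in adult CAR cells. After thinning each cell to 5000 UMIs, 29.3% of old members (25.8% to 33.1%) and 16.1% of adult members (12.4% to 20.4%) had a Dmp1 UMI, against 1.08% of old and 1.56% of adult CAR cells, so most members of either library had none at that depth. Blood cells, which should lack it, had a Dmp1 UMI in 1.09% of 825 old and 5.67% of 141 adult cells at that depth. The mean over those adult cells was 0.355 UMIs. Before thinning, the pooled level of 552 adult blood cells was 93.8 CPM, or 81.1% of the adult members' level. That pool includes 5 adult members, and how much of its Dmp1 was free RNA was not tested. Unthinned, 37.1% of old and 26.9% of adult members had a Dmp1 UMI.

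Col25a1 encodes a membrane-bound collagen. It was at 811 CPM in old and 498 CPM in adult members, against 13.3 CPM in old and 13.2 CPM in adult CAR cells, log2 ratios of 5.93 (5.85 to 6.01) in the old and 5.24 (5.15 to 5.34) in the adult library. Unlike Dmp1 it was widespread, with 69.4% of old and 52.6% of adult members holding a UMI at 5000 UMIs, against 2.30% of old and 7.80% of adult blood cells.

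**Figure D2:**
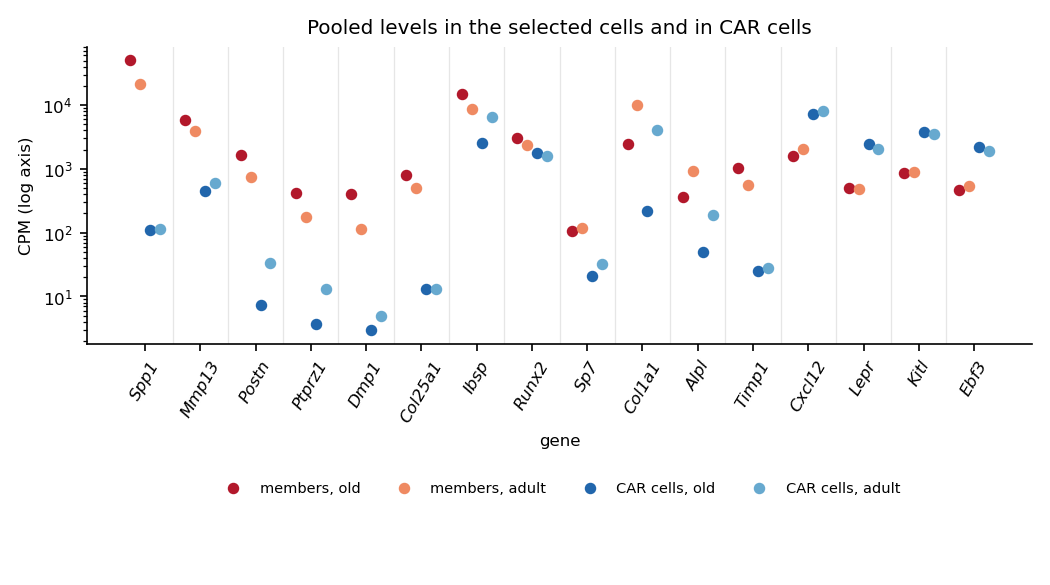
Pooled levels in CPM (log axis) of 16 genes in members (red and orange) and CAR cells (blues), with the old library left of the adult one in each pair. Spp1, Mmp13, Postn and Ptprz1 selected the members and Cxcl12 and Lepr the CAR cells. Dmp1, Col25a1 and Timp1 lie more than 20-fold above CAR cells, Runx2 lies close in all 4 pools, and Kitl and Ebf3 are lower in members.

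Markers of the bone lineage were present. Runx2 was at 3001 CPM in old and 2403 CPM in adult members, against 1796 CPM in old and 1601 CPM in adult CAR cells. Sp7 (osterix), which acts after RUNX2, was at 108 CPM in old and 119 CPM in adult members, against 20.7 CPM in old and 32.0 CPM in adult CAR cells. Genes of the osteocyte list differed among themselves. Sost, which marks mature osteocytes, had 0 UMIs in members of either library, which allows up to 0.306 CPM in the old and 0.488 CPM in the adult pool, and Pdpn and Fgf23 were at or below 2.28 CPM in both. Mepe was low but above CAR cells, at 14.9 CPM in old and 22.1 CPM in adult members, against 2.80 CPM in old and 2.62 CPM in adult CAR cells. So was Dkk1, at 12.6 CPM in old and 5.69 CPM in adult members, against 0.218 CPM in old and 0.881 CPM in adult CAR cells. Irx5 was below CAR cells, at 34 CPM in old and 48.3 CPM in adult members, against 43.6 CPM in old and 57.6 CPM in adult CAR cells. Wnt1 was at or below 0.488 CPM in members of both libraries. Phex, a protease that acts on phosphate handling, was at 157 CPM in old and 96.5 CPM in adult members, against 366 CPM in old and 94.0 CPM in adult CAR cells. Gja1, the connexin of bone cell gap junctions, was at 428 CPM in old and 991 CPM in adult members, against 618 CPM in old and 852 CPM in adult CAR cells. Of the 10 osteoclast genes, Ocstamp, Dcstamp, Tnfrsf11a, Calcr, Oscar and Atp6v0d2 were at or below 0.488 CPM and Acp5 at or below 2.77 CPM in members of both libraries. Ctsk, the collagen-degrading cathepsin, was at 133 CPM in old and 161 CPM in adult members, against 91.8 CPM in old and 145 CPM in adult CAR cells. Nfatc1 was at 28.4 CPM in old and 35.0 CPM in adult members, against 21.8 CPM in old and 31.2 CPM in adult CAR cells, and Mmp9 is described with the proteases. The 10 macrophage markers summed to 38.7 CPM in old and 34.3 CPM in adult members.

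Part of the members reached the Cxcl12 and Lepr levels of CAR cells. At the level that defined CAR cells, at least 10 UMIs of Cxcl12 and 1 of Lepr, stood 257 of the 657 old members (39.1%) and 189 of the 361 adult members (52.4%). RNA of plasma and B cell genes differed between the libraries. Igkc, the immunoglobulin kappa constant chain of plasma cells, was at 12291 CPM in old and 5.21 CPM in adult members, and at 19489 CPM in old and 0.628 CPM in adult CAR cells. Of the 120637 Igkc UMIs in old members most lay in a small cluster described below, which held 108428 with its few adult cells. Members outside it, of both libraries together, had 806 CPM. Clusters 1, 2 and 4, almost wholly of old members, were at 1254, 1540 and 1185 CPM in that order. The 7 plasma and B cell markers summed to 12399 CPM in old and 12.5 CPM in adult members, and the 9 erythroid markers to 1323 CPM in old and 146 CPM in adult members. Immunoglobulin and haemoglobin genes are for this reason left out of the rankings of genes by ratio below.

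Spp1 and Dmp1 belong to the SIBLING family of bone and tooth phosphoproteins, whose genes lie next to each other on mouse chromosome 5 in the order Dspp, Dmp1, Ibsp, Mepe, Spp1, with a predicted lncRNA between Dmp1 and Ibsp. The neighbours were not all present in members. Dspp, the dentin gene, had 0 UMIs in members of both libraries. Ibsp, bone sialoprotein, was at 14939 CPM in old and 8792 CPM in adult members, against 2518 CPM in old and 6394 CPM in adult CAR cells. Its log2 ratio over CAR cells was 2.57 in the old and 0.46 in the adult library, and adult blood cells carried it at 2375 CPM. Mepe was at 14.9 CPM in old and 22.1 CPM in adult members.

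The upstream stretches of the 2 genes after which the cells are called are shown because both hold a core RUNX motif and the members express Runx2. Each is the 200 bases before the RefSeq start site on the plus strand of GRCm38.p6, a build older than the GRCm39 of the counts, with motif matches in capitals. For Mmp13 the stretch is chr9:7272314-7272513 and for Spp1 chr5:104434911-104435110.
Mmp13: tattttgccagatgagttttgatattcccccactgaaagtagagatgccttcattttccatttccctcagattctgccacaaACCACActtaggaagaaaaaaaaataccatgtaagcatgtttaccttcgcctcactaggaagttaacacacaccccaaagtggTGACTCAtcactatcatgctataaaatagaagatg
Spp1: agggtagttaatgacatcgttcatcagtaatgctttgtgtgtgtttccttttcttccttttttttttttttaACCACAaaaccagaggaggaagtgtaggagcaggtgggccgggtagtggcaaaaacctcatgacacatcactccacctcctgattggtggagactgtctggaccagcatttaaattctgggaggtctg
The RUNX motif searched was TGTGGT, read on both strands as TGTGGT or ACCACA, and the AP-1 motif was TGANTCA, which reads the same on both strands. The RUNX match starts 118 bases before the start site in Mmp13 and 128 in Spp1, and Mmp13 has an AP-1 match 35 bases before it. Over the 250 bases upstream of 32851 RefSeq starts, 14.0% held the RUNX motif, 6.75% the AP-1 motif and 1.01% both. The same windows of Postn, Ptprz1, Col25a1, Ibsp and Timp1 held neither, and 1 of 2 listed starts held a RUNX match for Dmp1 and likewise for Spp1. A match is a run of letters and not a measured binding site.

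Against CAR cells of their own library, old members exceeded a 2-fold difference upwards in 270 of 4198 genes (6.43%) and downwards in 452 (10.8%), and adult members upwards in 263 of 4234 (6.21%) and downwards in 402 (9.49%). A gene was compared when it reached 50 CPM and 50 UMIs in the pool where it was higher, and the genes of both selections were left out. Of 3876 genes compared in both libraries, 154 passed 2-fold upwards in each (3.97%) and 306 downwards in each (7.89%). The median log2 ratio over all genes compared was −0.10 in the old and −0.06 in the adult library. Since both pools were cut from the same cells by correlated genes, these values describe the members and are no test. For 167 of the 263 genes higher in adult members, adult blood cells carried over 30% of the members' level, against 34 of the 270 in the old library. Blood cells of the libraries differ in depth and type, so these counts are not like for like.

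Matrix metalloproteinases and their inhibitors were mostly higher. Of 8 genes of matrix metalloproteinases and their tissue inhibitors compared, with Mmp13 left out, 7 were at least 2-fold higher in old and 6 in adult members and none was 2-fold lower. The median log2 ratio was 3.31 in the old and 2.50 in the adult library. Timp1, an inhibitor of most of these proteases, was at 1035 CPM in old and 567 CPM in adult members, against 24.7 CPM in old and 27.9 CPM in adult CAR cells. Timp3, the inhibitor bound to matrix, was at 812 CPM in old and 521 CPM in adult members, against 59.3 CPM in old and 56.9 CPM in adult CAR cells. Mmp14, the membrane-bound activator of other MMPs, was at 219 CPM in old and 368 CPM in adult members, against 107 CPM in old and 165 CPM in adult CAR cells. Mmp16, a related membrane protease, was at 162 CPM in old and 376 CPM in adult members, against 4.19 CPM in old and 51.2 CPM in adult CAR cells, with 189 CPM in adult blood cells. ADAM and ADAMTS proteases were not on 1 side: of 9 compared, 1 was at least 2-fold higher and 1 lower in old members and 0 higher and 1 lower in adult members, with median log2 ratios of −0.01 in the old and −0.23 in the adult library.

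Mmp9, the gelatinase that osteoclasts also make, was the exception in its spread among cells. It was at 65.2 CPM in old and 410 CPM in adult members, against 3.63 CPM in old and 7.57 CPM in adult CAR cells. Of the 2519 Mmp9 UMIs in adult members, 2179 came from the 20 cells of a cluster described below, in which the osteoclast gene Acp5 had 0 UMIs.

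Genes of bone matrix and mineralization were higher in part. In old members 7 of 12 compared passed 2-fold upwards and 2 downwards, with a median log2 ratio of 1.62, and in adult members 9 of 14 passed it upwards and none downwards, with a median of 1.50. Col1a1, the main bone collagen chain, was at 2474 CPM in old and 9918 CPM in adult members, against 219 CPM in old and 4086 CPM in adult CAR cells, but adult blood cells held 19548 CPM of it. Fam20c, the kinase that phosphorylates the SIBLING proteins, was at 236 CPM in old and 65.6 CPM in adult members, against 8.91 CPM in old and 5.40 CPM in adult CAR cells. Ank, a transporter that raises extracellular pyrophosphate, was at 327 CPM in old and 177 CPM in adult members, against 40.4 CPM in old and 31.3 CPM in adult CAR cells. Alpl, the phosphatase that removes pyrophosphate, was at 369 CPM in old and 937 CPM in adult members, against 49.2 CPM in old and 192 CPM in adult CAR cells. The mineralization inhibitor Mgp was lower in members, at 1940 CPM in old and 841 CPM in adult members, against 4029 CPM in old and 1096 CPM in adult CAR cells.

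Of the osteogenic regulators compared, 6 of 11 in the old and 6 of 12 in the adult library were at least 2-fold higher and none was 2-fold lower. Sp7, Dlx5, Pth1r and Mef2c were among them in both libraries. Pth1r, the receptor of parathyroid hormone, was at 281 CPM in old and 308 CPM in adult members, against 65.3 CPM in old and 110 CPM in adult CAR cells. Vdr, the vitamin D receptor, was at 545 CPM in old and 271 CPM in adult members, against 48.9 CPM in old and 216 CPM in adult CAR cells.

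Among 18 collagen genes compared in the old and 17 in the adult library, 9 and 6 were at least 2-fold higher, while Col4a1 and Col4a2, the basement membrane chains, were 2-fold lower in both. Col6a3, a chain of microfibrillar collagen VI, was at 840 CPM in old and 432 CPM in adult members, against 31.8 CPM in old and 85.4 CPM in adult CAR cells. Fn1, fibronectin, was at 295 CPM in old and 760 CPM in adult members, against 2.09 CPM in old and 85.2 CPM in adult CAR cells. Tnc, tenascin C, was at 6608 CPM in old and 4532 CPM in adult members, against 1310 CPM in old and 1764 CPM in adult CAR cells. Col5a3 and Col27a1, both chains of fibrillar collagens, were lower in members of both libraries by less than 2-fold.

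Genes of secreted signals went both ways. Wif1, an inhibitor that binds Wnt ligands, was at 318 CPM in old and 1008 CPM in adult members, against 60.2 CPM in old and 141 CPM in adult CAR cells. Lrp4, a co-receptor for the Wnt antagonists of bone, was at 672 CPM in old and 316 CPM in adult members, against 76.0 CPM in old and 59.3 CPM in adult CAR cells. Rspo2 and Rspo3, which amplify Wnt signals, were at least 2-fold lower in members of both libraries. Bmp3, a BMP family member that antagonizes osteogenic BMPs, was at 139 CPM in old and 64.1 CPM in adult members, against 1.72 CPM in old and 5.80 CPM in adult CAR cells. Bmp4, Bmp6 and the BMP antagonists Grem1 and Fst were at least 2-fold lower in members of both libraries.

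Other genes among the highest over CAR cells in both libraries were Pdgfc, Nlgn1, Vldlr, Fam78b, Ppfibp2, Ust and Slit2. Pdgfc, a growth factor that signals through PDGF receptor alpha, was at 234 CPM in old and 165 CPM in adult members, against 1.60 CPM in old and 7.83 CPM in adult CAR cells. Slit2, a secreted ligand of ROBO receptors, was at 2510.0 CPM in old and 1516 CPM in adult members, against 267 CPM in old and 343 CPM in adult CAR cells. Vldlr, a lipoprotein receptor, was at 218 CPM in both old and adult members, against 8.36 CPM in old and 12.8 CPM in adult CAR cells. Megf10, a scavenger receptor, was not ranked among these, being under the minimum of 100 CPM in adult members. It was at 262 CPM in old and 83.6 CPM in adult members, against 28.8 CPM in old and 9.31 CPM in adult CAR cells.

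Factors of the blood-forming niche were lower. Of 11 compared besides Cxcl12, 9 were at least 2-fold lower in members of each library, namely Kitl, Il7, Angpt1, Igf1, Bmp4, Vcam1, Ptn, Il15 and Fgf7. Kitl, stem cell factor, was at 851 CPM in old and 905 CPM in adult members, against 3847 CPM in old and 3544 CPM in adult CAR cells. Of the 15 CAR markers outside the selection, all 15 were below CAR levels in both libraries and 12 in old and 11 in adult members were at least 2-fold lower. Adipoq, the adipocyte hormone that marks CAR cells, was at 200 CPM in old and 315 CPM in adult members, against 1184 CPM in old and 1742 CPM in adult CAR cells.

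The lowest ratios were those of Fmo2, Chrdl1, Prelp, Lpl, Plac9, Adipoq, Gzmk, Pdzrn4, Epb41l4b and Adamtsl3. Chrdl1, a secreted BMP antagonist, was at 119 CPM in old and 142 CPM in adult members, against 888 CPM in old and 862 CPM in adult CAR cells. Complement and acute phase genes were also lower, 8 of 12 in the old and 8 of 11 in the adult library by at least 2-fold, with C3, C4b, C1s1, C1ra, Serping1, Hp, Serpina3g and Clu in both.

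**Figure D3:**
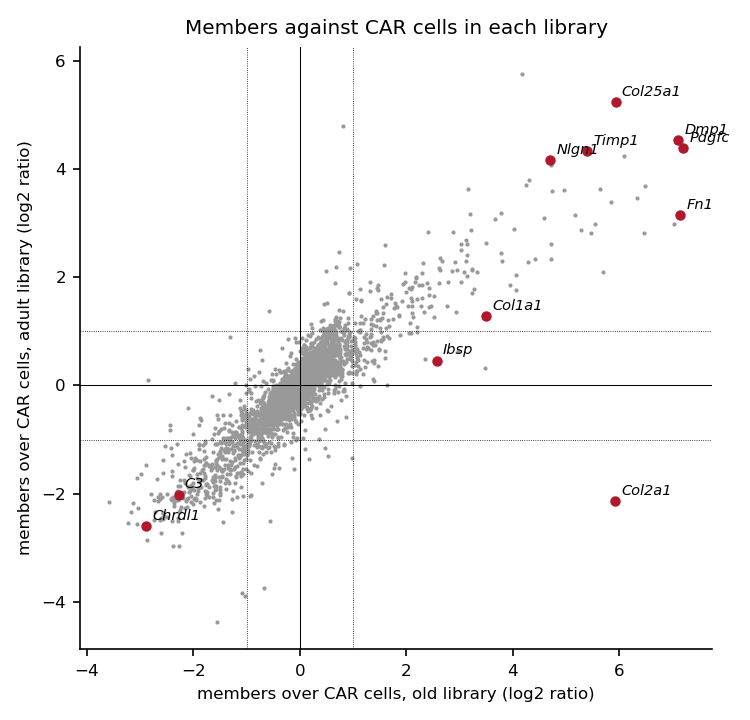
Log2 ratio of members over CAR cells in the old (horizontal) and the adult (vertical) library, 1 point for each gene compared in both, with dotted lines at 2-fold. Named genes are in red. Dmp1, Pdgfc, Col25a1 and Timp1 are high in both libraries, Chrdl1 and C3 are low in both, and Col2a1 alone lies on opposite sides beyond 2-fold.

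Set against adult members, old members passed 2-fold upwards in 127 of 4015 genes (3.16%) and downwards in 120 (2.99%), with a median log2 ratio of −0.07 over all genes compared. CAR cells shared part of this. Of the 127, 54 were also at least 2-fold higher in old than adult CAR cells, 41 were within 2-fold there, 29 were too low to be compared and 3 were 2-fold lower. Of the 120, 47 were also 2-fold lower in old CAR cells, 33 were within 2-fold and 40 were too low. Over 30% of the higher pool's level was present in blood cells for 39 of the 127 and 75 of the 120. The blood cells were those of the library where the gene was higher, and they differ between libraries in depth and type. Ratios also moved with gene length. Among 4 groups of genes ordered by length, the median in members was −0.24 in the shortest and 0.08 in the longest, and in CAR cells −0.17 in the shortest and 0.09 in the longest, and the part of length in single genes was not tested.

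The matrix genes split. Of 14 bone matrix and mineralization genes compared, Mgp, Enpp1 and Fam20c passed 2-fold upwards in old over adult members and Col1a1, Col1a2, Sparc, Alpl, Smpd3, Slc20a2 and Omd downwards, with a median log2 ratio of −1.01 that turned to 1.99 once the level in blood cells was subtracted. Over the 8 of these whose background was under 30% the median was 0.79. The log2 ratio of Dmp1 between old and adult members was 1.80 (1.69 to 1.92), and that of CAR cells was −0.75. Fam20c had 1.85 (1.70 to 2.01) in members and 0.72 in CAR cells. Alpl had −1.35 (−1.41 to −1.29) in members and −1.97 in CAR cells. Slc20a2, a phosphate transporter, was at 62.6 CPM in old and 225 CPM in adult members, a log2 ratio of −1.85 (−1.99 to −1.71). Ibsp had 0.76 in members and −1.34 in CAR cells. Mepe was under the minimum, at 14.9 CPM in old and 22.1 CPM in adult members. The lower values of Col1a1 and Col1a2 in old members stand beside 19548 and 15774 CPM of these genes, in that order, in adult blood cells, more than in adult members.

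Col2a1, the collagen chain typical of cartilage, was at 813 CPM in old and 115 CPM in adult members, against 13.5 CPM in old and 508 CPM in adult CAR cells. It was not particular to members. Cells at the mature osteoblast level of osteocalcin held more, at 5100 CPM in the old and 1560 CPM in the adult library. Between 0 and 128 UMIs were found per old member, with a median of 6, and between 0 and 146 per adult member, with a median of 0. Of the other cartilage genes, Comp was at 58.9 CPM in old and 39.9 CPM in adult members, against 15.2 CPM in old and 47.5 CPM in adult CAR cells. Col9a2 and Col9a3, which the selection did not limit, were at 0.611 CPM each and Sox9 at 7.13 CPM in old members. In the adult library, blood cells held 810 CPM of Col2a1, above both pools.

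Hs3st5, an enzyme that adds sulfate to heparan sulfate, had the lowest ratio among the named genes, which leave out markers of blood and osteoclast cells. Mmp9, an osteoclast marker, had a log2 ratio of −2.65, which rested on the 20 adult cells named above. Hs3st5 was at 5.91 CPM in old and 223 CPM in adult members, against 0.418 CPM in old and 8.03 CPM in adult CAR cells, so members exceeded CAR cells in both libraries. It had at least 1 UMI in 2.59% of the old members and in 43.2% of the adult members. Wif1 had a log2 ratio of −1.66 (−1.73 to −1.60) in members and −1.22 in CAR cells. Fn1 had −1.37 (−1.44 to −1.30) in members and −5.35 in CAR cells. Ndnf, Islr, B3galt1, Mpped2, Id3 and Cxcl9 were further named genes with the lowest ratios, all between −1.29 and −1.50, together with Fabp5 at −1.79. Of the 865 Fabp5 UMIs in adult members, 690 came from the 20-cell cluster that also held Mmp9, and the log2 ratio was −0.18 without clusters 6, 8, 9 and 10 and 0.51 in clusters 1, 2 and 3 alone. Cxcl9, at −1.29, stood at −0.02 with members taken from 25 Spp1 UMIs upwards and at −0.44 with members taken from 100 upwards.

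On the higher side stood C3, the central complement protein, at 158 CPM in old and 19.7 CPM in adult members, against 767 CPM in old and 79.9 CPM in adult CAR cells. Its log2 ratio was 3.00 (2.74 to 3.28) in members and 3.26 in CAR cells. All 12 complement and acute phase genes compared were above 0 in old over adult members, 4 of them (C1s1, C3, C4b and Slpi) by at least 2-fold. Slpi rested on the plasma and B cell gene cluster described below, which had 17239 CPM of it, against 122 CPM in all other members. Spon1, a secreted matrix protein, was at 305 CPM in old and 50.9 CPM in adult members, with ratios of 2.58 in members and 1.45 in CAR cells. Itgb5, an integrin chain that pairs with alpha-v to bind osteopontin, was at 666 CPM in old and 203 CPM in adult members, a ratio of 1.71 (1.62 to 1.80), against 0.71 in CAR cells. Rgs20, Tmem86a, Gpr176, Tmcc3, Ccnd3 and Megf10 were the other genes with the highest ratios, between 1.65 and 2.33.

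**Figure D4:**
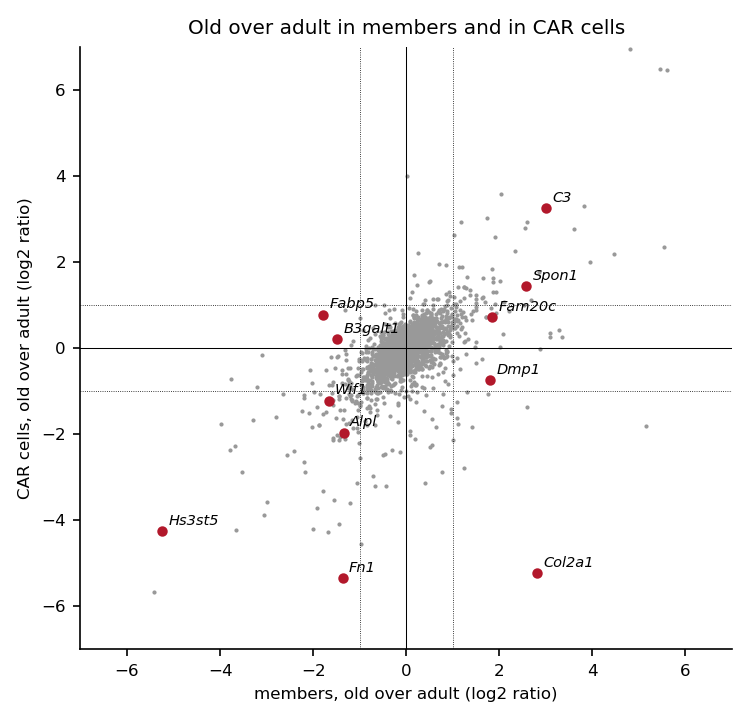
Log2 ratio of old over adult in members (horizontal) and in CAR cells (vertical), 1 point per gene compared in members, with dotted lines at 2-fold and axes limited to 7. The 10 genes beyond the axes are immunoglobulin and other plasma or B cell genes and Ly6 genes. C3, Spon1 and Hs3st5 lie on the same side in members and CAR cells, while Dmp1 and Col2a1 are higher in old members and lower in old CAR cells.

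Within a library, members ran between a side with more Spp1 and a side with more CAR genes. Over the members thinned to 5000 UMIs, Spearman correlations with Spp1, given as a description over cells of 1 library that share depth and free RNA, were 0.75 in 627 old and 0.34 in 348 adult members for Timp1. They were 0.63 in old and 0.28 in adult members for Ibsp, 0.41 and 0.35 for Dmp1 in the same order, and −0.53 in old and −0.19 in adult members for Cxcl12. Runx2 was close to 0 in old members, at 0.02, and at 0.10 in adult members. Alpl was at −0.27 in both libraries and Wif1 at −0.20 in old and −0.07 in adult members. Genes higher in members than in CAR cells thus did not all rise with Spp1, which is itself a gene of the selection.

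Members with at least 5 Dmp1 UMIs numbered 143 in the old and 29 in the adult library, and those with none 413 and 264 in the same order. Dmp1-rich members had a median of 1201 Spp1 UMIs in the old and 763 in the adult library, against 229 in old and 94 in adult members without Dmp1. In old members, Ank was at 687 CPM in the Dmp1-rich and 167 CPM in the Dmp1-free cells, and in adult members at 480.4 CPM and 141 CPM in that order. Gfra1, a receptor of the GDNF family, was at 175 CPM in Dmp1-rich and 38.4 CPM in Dmp1-free old members, and at 162 CPM in Dmp1-rich and 30.9 CPM in Dmp1-free adult members. Pdgfc, Ust, Col13a1, Fam20c and Col25a1 were at least 2-fold higher in Dmp1-rich members of both libraries. Lower in both were the chemokines Cxcl14 and Cxcl9, Mgp, Saa3, Col4a1, Col4a2, Igfbp5, Adipoq and Lpl. Dmp1-rich cells were also deeper, with medians of 15659 UMIs in the old and 20362 in the adult library, against 11620 in old and 14305 in adult Dmp1-free cells, and the part of depth in these differences was not tested.

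Clustering of all 1018 members by genes outside the selection gave 10 clusters, numbered by size and left unnamed. They nearly separated the libraries. Clusters 1, 2 and 4 held 208, 199 and 170 old members and at most 15 adult ones, and clusters 3, 5, 7 and 9 held 176, 77, 35 and 20 adult members and at most 1 old one. No cluster held 50 members of each library, so the old and adult values could not be compared within a cluster, and a cluster of 1 library may reflect that library. The leading genes below describe how the clusters were formed and are no findings.

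In the old library, cluster 1 had the highest Spp1, at 80785 CPM, with 845 CPM of Dmp1, 25032 CPM of Ibsp and 227 CPM of Cxcl12. Cluster 4 had 29423 CPM of Spp1 and 3826 CPM of Cxcl12, and C3, Fmo2 and Grm7 among its leading genes. In the adult library, cluster 3 was led by Hs3st5 and Omd, with 23995 CPM of Spp1 and 1389 CPM of Cxcl12. Cluster 5 had 14445 CPM of Spp1 and 4730 CPM of Cxcl12, and Lpl and Igf1 among its leading genes. Each library thus held cells with high Spp1 and less Cxcl12 beside cells nearer to CAR cells. Cluster 7, with a median of 28306.5 UMIs, had 41621 CPM of Col1a1, 17295 CPM of Ibsp and 4798 CPM of Spp1.

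Of the smaller clusters, 6 and 10 carried genes of blood cells, 8 carried cell cycle genes together with haemoglobin RNA, and 9 was set apart by other genes. Cluster 6 (49 old and 13 adult members) had 139003 CPM of Igkc and 622 CPM of Runx2, with the B cell genes Cd74 and Blnk among its leading genes. Few of its cells carried these: Cd74 had a UMI in 19.4% and Blnk in 14.5% of them. Runx2 had a UMI in 75.8% of its cells, and the median depth was 6579 UMIs. Cluster 8 (21 old and 11 adult members) was led by cell cycle and histone genes, and 96.9% of its cells held a Runx2 UMI. It had 1701 CPM of the haemoglobin gene Hba-a1, against 111 CPM in other members. Hba-a1 had a UMI in 43.8% of its cells, against 34.5% of other members. Cluster 10 (7 old and 5 adult members) was led by platelet genes, with 3017 CPM of Pf4. Cluster 9, all adult, had 6005 CPM of Mmp9, 10387 CPM of Mmp13, 1902 CPM of Fabp5 and 16.5 CPM of Dmp1. The hedgehog pathway genes Ptch1 and Gli2 were among its leading genes, and 100% of its cells held a Runx2 UMI. Without clusters 6, 8, 9 and 10, a choice made after the data were seen, the ratio of member shares was 2.19, and old members passed 2-fold over adult members upwards in 140 genes and downwards in 113.

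**Figure D5:**
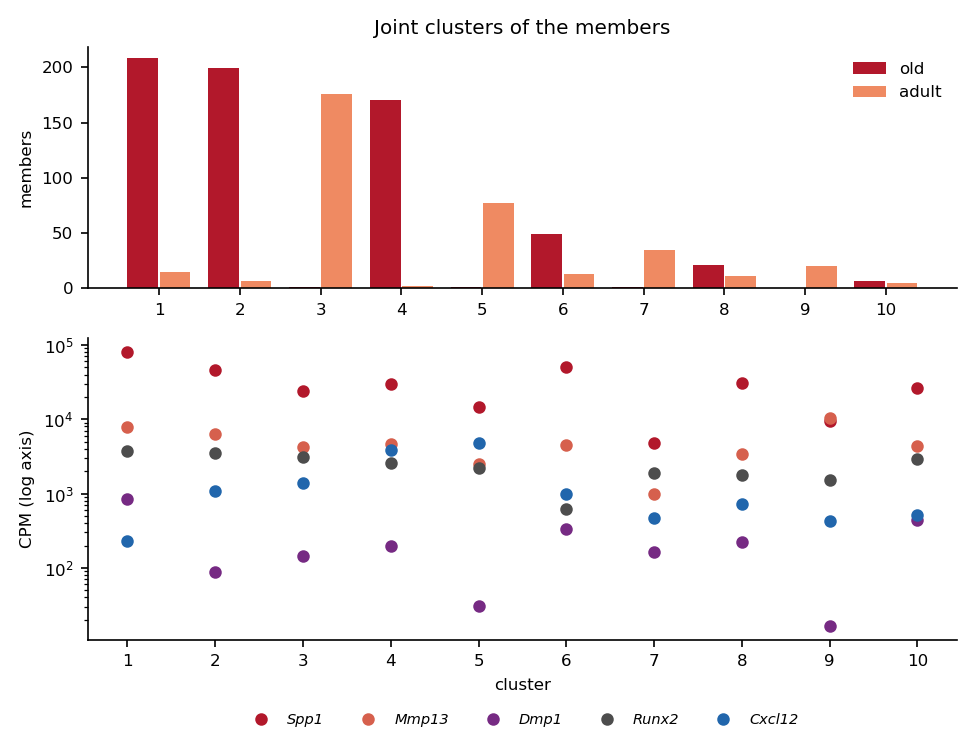
Top, members of the old (red) and adult (orange) library in each of 10 joint clusters. Bottom, pooled levels of 5 genes per cluster in CPM (log axis). Clusters 1 to 5 come almost wholly from 1 library each, Cxcl12 is highest in clusters 4 and 5, and Runx2 is lowest in cluster 6.

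The osteocalcin-high cells numbered 51 in the old and 858 in the adult library. Their Spp1 and Mmp13 levels are a description, as both genes selected the members. Spp1 was at 50016 CPM in old members against 1728 CPM in old osteocalcin-high cells, and at 21568 CPM in adult members against 1272 CPM in adult osteocalcin-high cells. Mmp13 was at 5776 CPM in old members against 74.2 CPM in old osteocalcin-high cells, and at 3968 CPM in adult members against 118 CPM in adult osteocalcin-high cells. Dmp1 was at 404 CPM in old members against 87.7 CPM in old osteocalcin-high cells, and at 116 CPM in adult members against 82.8 CPM in adult osteocalcin-high cells, near the 93.8 CPM of adult blood cells. Between the groups stood the 86 adult cells that met every limit but that on osteocalcin, with 55522 CPM of Col1a1, 10546 CPM of Bglap, 680.4 CPM of Mmp13 and 106 CPM of Dmp1. The old library held 5 such cells.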

How the data were processed

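Per the file headers and the submitters' processing notes, the deposited UMI counts per gene and barcode were made with Cell Ranger 7.0.1 on GRCm39, and the sources used here do not give the annotation or any barcode filter. Counts of the old and the adult library were used as deposited. Members, gene lists and thresholds were chosen with earlier results of these data known. UMIs were summed per gene over each pool of cells and divided by the pool's total, as CPM. Members held 9814868 UMIs in the old and 6145853 in the adult library. Log2 ratios have exact conditional 95% intervals and shares exact (Clopper-Pearson) 95% binomial intervals, which cover counting error only. A sum of 0 was set to 3 counts in a ratio. No doublet caller was run. Free RNA was read from the pooled level of 1130 old and 552 adult megakaryocytes and erythroid cells, a limit that has no meaning for genes those cells express. These pools include 13 old and 5 adult members, and few cells can carry a pooled level. They are unlike between the libraries, with 378 megakaryocytes and 756 erythroid cells in the old library and 473 and 80 in the adult library. Their median depth was 24109.5 UMIs in the old and 1962.5 in the adult library. Members were clustered with leidenalg 0.10.2 on 2000 variable genes, 30 components and 15 neighbours at resolution 0.5. Named genes are the 6 markers, the 12 highest and 12 lowest old over adult ratios, and the 15 highest and 10 lowest ratios over CAR cells, at 100 CPM and 100 UMIs or more and background under 30%, without markers of blood and osteoclast cells, with up to 4 genes per list. Others named within a list, cluster or split were chosen after their values were seen. Promoters come from RefSeq (GRCm38.p6). Calculations were tested on simulated data.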

Additional observations from a re-analysis of the deposited data

Results flagged for a closer look

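Col2a1 was at least 2-fold higher in members than in CAR cells of the old library (log2 ratio 5.91) and at least 2-fold lower in the adult library (−2.14). It was the 1 gene of those compared with opposite directions beyond 2-fold in the libraries, and the difference between the libraries was not tested, since each age has 1 library. Adult blood cells carried Col2a1 at 810 CPM, and their part in the adult ratio was not tested. Osteocalcin-high cells carried more Col2a1 than members, at 5100 CPM in the old and 1560 CPM in the adult library.

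Among barcodes left out for too few genes or too many mitochondrial UMIs, 13 in the old and 14 in the adult library met every UMI limit of the selection. They entered no comparison.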

How the results depend on the processing

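The share of members in the old over the adult library stayed above 1 under every alternative run. Against 2.15, it was 1.60 with Spp1 of at least 25 UMIs, 3.26 with at least 100, and 2.75 without members that reached the CAR level of Cxcl12 and Lepr. That last exclusion also moved the adult genes over CAR cells to 410 higher and 635 lower, and those lower in both libraries to 462. With a minimum of 200 CPM and 200 UMIs, genes higher and lower in old than adult members numbered 36 and 40. Members over CAR cells then gave 113 higher and 191 lower in the old library, 115 and 166 in the adult library, and 62 and 128 in both. With a minimum of 10 CPM and 10 UMIs, the counts in the same order were 343 and 350, 569 and 857, 610.0 and 752, and 338 and 528, where the lower minimum itself admits more genes. Subtracting the level of blood cells gave 430.0 genes higher and 218 lower in old than adult members, and with members removed from the blood cells, an alternative added after the data were seen, 440.0 and 239. In both subtractions a gene left with fewer than 3 counts was set to 3, as where the blood level exceeded the pool's. The blood cells of the libraries also differ in depth and type, and the cause of the shift was not tested. No other count moved by over 1.5 times.

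The median log2 ratio of bone matrix genes between old and adult members, −1.01, turned to 0.32 with member thresholds scaled to 10000 UMIs per cell. It turned to 1.99 and 1.97 with the blood level subtracted, where the floor of 3 counts applied. In clusters 1, 2 and 3 alone, another alternative added later, it turned to 0.087. Of 87 ratios of named genes at or above 2-fold, 6 came under it in some alternative, all in old over adult members (Cxcl9, Fabp5, Fn1, Postn, Ptprz1 and Spp1). Fabp5 alone changed sign, at 0.51 in clusters 1, 2 and 3. No paired analysis was possible because each age has 1 library. Depth limits the pools of few cells most, such as the 51 old osteocalcin-high cells.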

Other observations

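Several gene groups outside bone biology had small and uniform ratios. Of 23 genes of oxidative phosphorylation compared, 21 were above 0 in members over CAR cells of the old library and 22 in the adult library, with median log2 ratios of 0.22 and 0.39 in that order and none at 2-fold. In old over adult members, 22 of the 23 were below 0, with a median of −0.27, while all genes compared had −0.07. For none of the 23 was the level in blood cells, which express these genes themselves, under 30%. Of 18 immediate early genes compared, 17 were below 0 in old over adult members, with a median of −0.56, and 4 of the 18 (Ier5, Atf3, Klf4 and Dusp1) were at least 2-fold lower, against 2.99% of all genes compared. Blood cells held over 30% of the level for all but 1 of the 18, and that gene had a ratio of 0.89.

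Genes of interferon response and antigen presentation were lower in old members than in old CAR cells, with 6 of 6 and 12 of 12 compared below 0 and medians of −1.12 and −0.80 in that order. In the adult library 3 of 3 and 8 of 9 were below 0, with medians of −0.59 and −0.51 in that order. Of genes of secretion and protein folding, 2 of 16 in the old library (all genes 6.43%) and 3 of 17 in the adult library (all genes 6.21%) were at least 2-fold higher in members than in CAR cells, with median log2 ratios of 0.21 and 0.11 in that order. Plod2, a collagen-modifying hydroxylase, and Creb3l1, a transcription factor of the secretory pathway in osteoblasts, were the ones that passed in both.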
